A study of Homo sapiens with 24 samples.

Results

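The genes described here encode proteins of the mitochondrial ribosome and were taken by symbol as every row named MRPL or MRPS followed by a number and, in a few cases, a letter. The rule found 76 of the 57820 rows, 48 for the large subunit (MRPL) and 28 for the small subunit (MRPS). All 76 passed the filter on low values, which asked for a normalised count of at least 10 in at least 3 libraries and left 17860 genes to test. MRPL45 and MRPS21 did not match by symbol and were not analysed here. The letters L and S follow the gene names. MRPS18A and MRPS30 encode proteins that sit in the large subunit, and the MRPS36 protein has been assigned to the 2-oxoglutarate dehydrogenase complex.

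Messenger RNA was measured in RBE and SNU1079, human cholangiocarcinoma lines that both carry mutant IDH1 and express SULT1A1, a sulfotransferase. Cells of each line received YC-1, a synthetic indazole that activates soluble guanylate cyclase, or the solvent DMSO. Both treatments were given for 6 h or 16 h, which makes 8 groups of 3 biological replicates, and no dose is given in the labels. Every difference between the lines is one between these 2 lines only. Times follow the sample titles. A separate time field contradicts them, with 16 h entered for all DMSO samples and 6 h for all YC-1 samples.

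The mitochondrial ribosome translates the few messenger RNAs of the mitochondrial genome, which encode core subunits of the respiratory chain. Its ribosomal RNAs are transcribed inside the organelle, whereas all of its proteins are made from nuclear genes in the cytosol and imported. Some of these proteins descend from bacterial ribosomal proteins and others were added during the evolution of mitochondria.

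Sums of normalised counts ran from 19010000 to 27010000 per library. Genes encoded in mitochondrial DNA held 6.02% to 8.5% of the signal in the DMSO libraries, 15.4% to 17.0% in RBE with YC-1 at 16 h, and 18.1%, 3.38% and 22.1% in SNU1079 with YC-1 at 16 h. In 3 SNU1079 groups 1 library lay farthest from its group mates (YC-1 at 6 h replicate 1, DMSO at 16 h replicate 1 and YC-1 at 16 h replicate 2), with a median distance over genes of 0.484, 0.351 and 0.426 on the log2 scale. The other libraries spanned 0.132 to 0.383, the highest being SNU1079 with YC-1 at 16 h replicate 3. The 0.351 of DMSO at 16 h replicate 1 thus lies within the range of libraries that were kept. Main counts are also given without these 3 libraries, a choice made after seeing the data. Of the epithelial markers of bile duct cells, all 6 were measured, with summed normalised counts of 73100 to 148400. Of markers of other cells, 3 of 5 stromal (COL3A1, DCN, LUM), 2 of 4 leukocyte (CD3E, PTPRC) and 1 of 2 endothelial genes (CDH5) stayed under 10 in every library. The others did not: COL1A1 reached 3808 and averaged 3430 in SNU1079 with DMSO at 6 h, PDGFRB reached 115.3, LYZ 66.68, CD14 62.61 and VWF 51.44. CD14 rose with YC-1 at 16 h by 4.29 in RBE (adjusted p = 1.02e-05) and 5.57 in SNU1079 (adjusted p = 3.47e-07), and COL1A1 fell by 1.77 (adjusted p = 0.00242) and 1.21 (adjusted p = 0.0298). Summed levels ran from 44.69 to 3829 (stromal), 0.8761 to 102.6 (leukocyte) and 1.512 to 52.02 (endothelial), and their part in the results was not tested.

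Promoter stretches of 4 genes are printed because these genes show the separate courses described further on: a gene that rose in every comparison, a gene that fell in every comparison, a head-to-head pair whose members moved apart, and a gene that fell in SNU1079. Sequences are from RefSeq on GRCh38.p14, read 5′ to 3′ on the strand of the named gene, and stop short of every exon. Capitals mark CCGGAAG, the core bound by ETS factors such as GABP, or its reverse complement CTTCCGG. MRPL58 lies at chr17:75012420-75012669 (plus strand), MRPL16 at chr11:59810873-59811028 (minus strand), the gap between MRPL46 and MRPS11 at chr15:88467420-88467452 (minus strand, the strand of MRPL46) and MRPS31 at chr13:40771191-40771440 (minus strand).
MRPL58: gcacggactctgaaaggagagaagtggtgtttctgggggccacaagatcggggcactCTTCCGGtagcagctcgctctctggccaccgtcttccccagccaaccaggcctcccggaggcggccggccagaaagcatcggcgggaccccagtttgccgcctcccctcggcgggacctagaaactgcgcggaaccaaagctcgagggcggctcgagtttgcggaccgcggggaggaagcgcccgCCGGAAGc
MRPL16: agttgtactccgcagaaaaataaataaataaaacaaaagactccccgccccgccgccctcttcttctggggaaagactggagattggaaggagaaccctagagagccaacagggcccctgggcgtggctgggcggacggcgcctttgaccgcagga
MRPL46: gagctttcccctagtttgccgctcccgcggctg
MRPS31: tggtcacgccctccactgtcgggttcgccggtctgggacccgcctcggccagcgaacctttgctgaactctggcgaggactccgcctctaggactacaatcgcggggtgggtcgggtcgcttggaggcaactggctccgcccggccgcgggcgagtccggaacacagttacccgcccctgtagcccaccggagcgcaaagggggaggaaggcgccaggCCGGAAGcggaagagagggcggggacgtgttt

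Promoters of 67 of the 76 genes were present in the RefSeq table, as windows from 250 bases before to 50 after the start. The ETS core CCGGAAG, sought on both strands, occurred in 28 of the 67 windows (41.8%), against 18.0% of 11221 windows of tested genes and 10.7% of all 27305. The YY1 motif AANATGGCG, on both strands like the third motif, occurred in 18 (26.9%, against 6.42% and 3.37%). A shortened NRF1 motif, GCGCANGCG, occurred in 12 (17.9%, against 14.0% and 8.05%). It was shortened after a longer form, with one more C at its 3' end, had been searched, and that form occurred in 7 (10.4%, against 11.0% and 6.28%). The share in these genes thus lay above that of tested genes with the shorter form and below it with the longer, and nothing is read from either. Of 62 windows of cytosolic ribosomal protein genes, 33.9% held the ETS core, 12.9% the YY1 motif and 11.3% the shortened NRF1 motif. A match describes letters in the window and is not evidence of binding.

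At 16 h, more mitochondrial ribosomal protein genes were higher than lower with YC-1 in both lines under the deposited scaling, and the large subunit genes had the higher median in each line. In RBE, 44 of the 76 rose and 7 fell, beside 27.3% of all tested genes that rose and 26.6% that fell. In SNU1079, 33 rose and 15 fell, beside 28.7% and 25.8%. The median log2 change was 0.51 in RBE and 0.27 in SNU1079, against medians over all tested genes of 0.02 and 0.06. Without the 3 SNU1079 libraries that stood apart, the counts were 50 and 13 in RBE, beside 31.9% and 30.4% of all tested genes. They were 35 and 18 in SNU1079, beside 28.6% and 26.5%. With only the 6 libraries compared in the fit, 16 of the 76 rose in SNU1079, beside 18.4% of all tested genes, a smaller excess. In SNU1079 the balance turned when libraries were scaled to equal sums: 10 genes were then higher and 27 lower (13.2% and 35.5%, beside 17.2% and 36.9% of all tested genes), with a median of -0.09. In RBE it stayed on the higher side, at 24 higher and 17 lower (31.6% and 22.4%, beside 16.3% and 36.3%) with a median of 0.18.

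**Figure D1:**
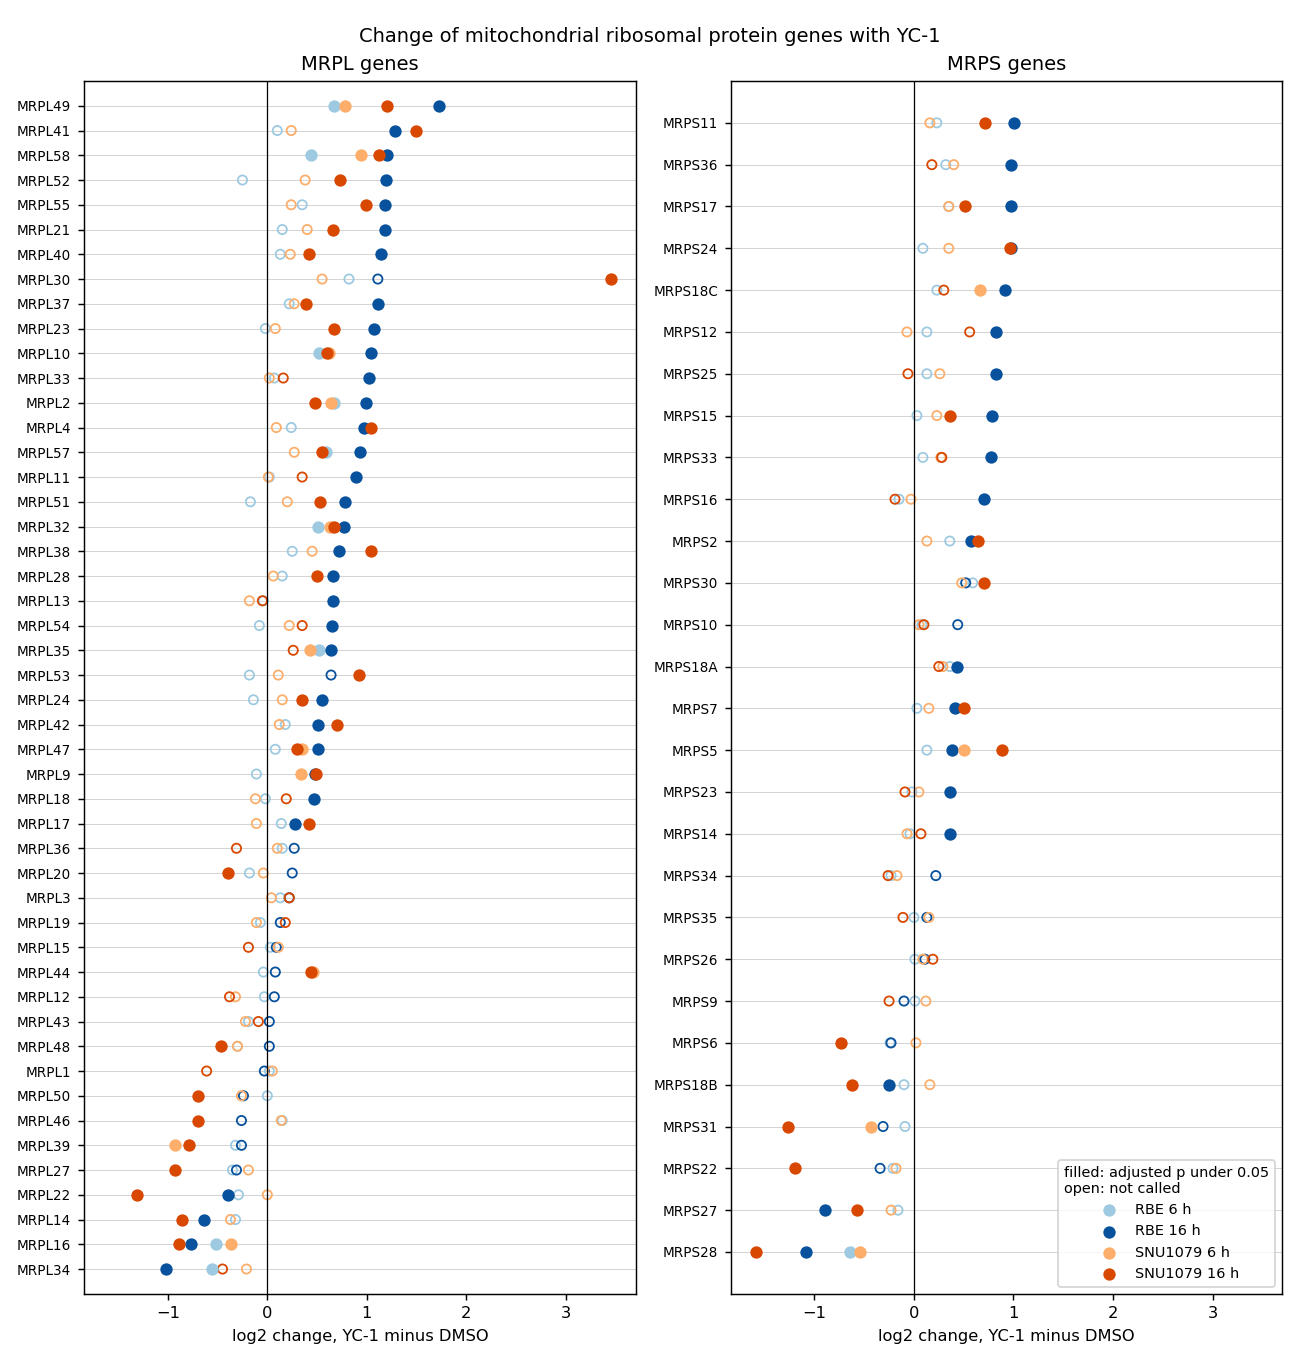
Log2 change with YC-1 against DMSO for each of the 76 genes, MRPL and MRPS in separate panels, for both lines at 6 h and 16 h. Filled points passed an adjusted p of 0.05. At 16 h the points spread to both sides of 0, with 44 genes higher and 7 lower in RBE and 33 and 15 in SNU1079 under the deposited scaling (10 and 27 in SNU1079 with equal sums).

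The scaling shifts every gene alike, so values relative to the rest of the transcriptome moved less. Equal sums moved the median of all tested genes to -0.27 in RBE and -0.25 in SNU1079 at 16 h, and equal sums without mitochondrially encoded genes to -0.14 in both. The median of the 76 genes minus that of all genes lay between 0.45 and 0.49 in RBE and between 0.16 and 0.21 in SNU1079 under the 4 scalings compared. The 48 MRPL genes were 0.54 to 0.57 above the median of all genes in RBE and 0.24 to 0.29 above it in SNU1079. The 28 MRPS genes were 0.36 to 0.4 above it in RBE and 0.03 to 0.08 above it in SNU1079.

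Individual calls divided into those that held under every scaling and those that did not. In RBE at 16 h, 24 of the 44 higher calls and 7 of 7 lower calls were made under all 4 scalings. In SNU1079 at 16 h, 10 of the 33 higher calls and 15 of 15 lower calls were. The other scalings moved the median of all tested genes at 16 h down, from 0.02 to 0.0, -0.14 or -0.27 in RBE. In SNU1079 it went from 0.06 to 0.05, -0.14 or -0.25. This shift favours keeping lower calls over higher ones, so nothing is read from that contrast. The share of all tested genes that kept their calls was not computed. The 24 in RBE were MRPL2, MRPL4, MRPL10, MRPL11, MRPL21, MRPL23, MRPL32, MRPL33, MRPL35, MRPL37, MRPL40, MRPL49, MRPL51, MRPL52, MRPL55, MRPL57, MRPL58, MRPS11, MRPS15, MRPS17, MRPS18C, MRPS24, MRPS25 and MRPS33. The 10 in SNU1079 were MRPL4, MRPL30, MRPL32, MRPL38, MRPL41, MRPL49, MRPL58, MRPS5, MRPS11 and MRPS24. On the same strand, MRPL38 shares 37.5% of its exon length with AC087289.3 and MRPS24 23.2% with URGCP-MRPS24. Those lower in SNU1079 were MRPL14, MRPL16, MRPL20, MRPL22, MRPL27, MRPL39, MRPL46, MRPL48, MRPL50, MRPS6, MRPS18B, MRPS22, MRPS27, MRPS28 and MRPS31.

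**Figure D2:**
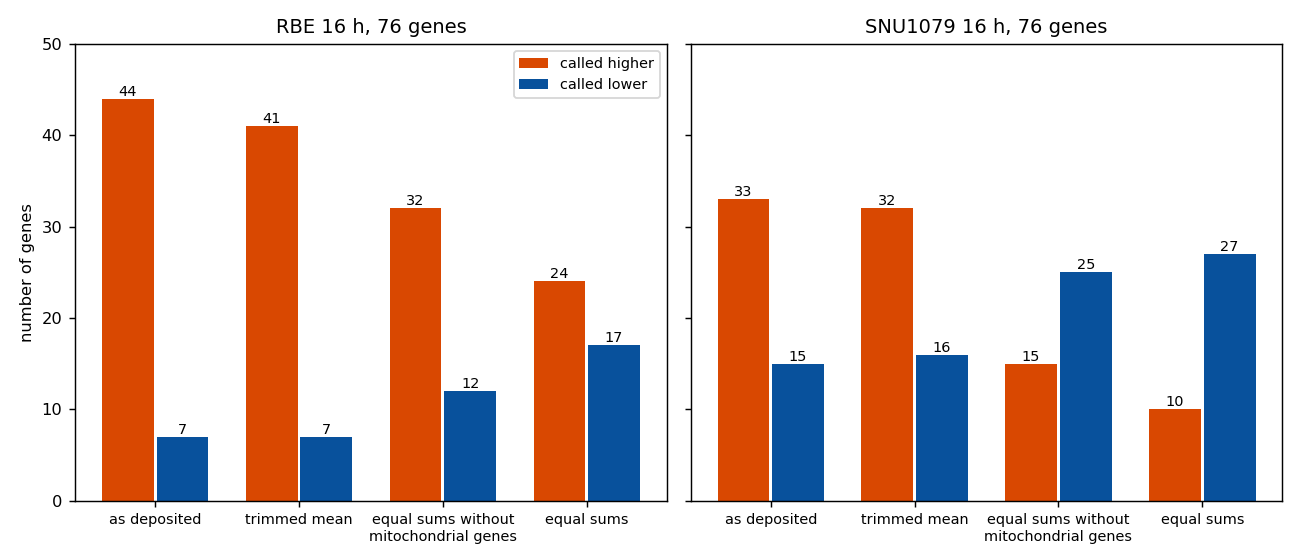
Number of genes called higher (above 0) and lower (below 0) with YC-1 at 16 h in each line under 4 scalings of the libraries. Between the deposited scaling and equal sums, higher calls go from 44 to 24 (RBE) and from 33 to 10 (SNU1079), and lower calls from 7 to 17 and from 15 to 27.

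Of the large subunit genes, 5 rose in each of the 4 comparisons of YC-1 with DMSO: MRPL2, MRPL10, MRPL32, MRPL49 and MRPL58. That is 6.58% of the 76 genes, near the 6.18% of all tested genes with this pattern. Among them MRPL49, a protein with no bacterial counterpart, had the largest change at 16 h in both lines (chromosome 11, 65122183 to 65127371, plus strand, GENCODE 29 on GRCh38). Its normalised count in RBE was 1671, 1688 and 1811 with DMSO and 5749, 5692 and 5545 with YC-1 at 16 h. At 6 h it was 1826, 1734 and 1839 with DMSO and 2801, 2864 and 2949 with YC-1. In SNU1079 it was 1092, 1120 and 1015 with DMSO and 2333, 2882 and 2240 with YC-1 at 16 h. No YC-1 library overlapped a DMSO library of its line and time. At 16 h the log2 change was 1.72 ± 0.1 in RBE (adjusted p = 1.22e-11, limma) and 1.2 ± 0.1 in SNU1079 (adjusted p = 2.59e-09). Values after ± are, unless marked SD, the SE from a spread shared by all 24 libraries, with n = 3 per group. At 6 h the log2 change was 0.67 ± 0.1 (adjusted p = 2.6e-05) and 0.78 ± 0.1 (adjusted p = 3.51e-06).

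MRPL58, also called ICT1, is a peptidyl-tRNA hydrolase that frees stalled mitochondrial ribosomes, and it is built into the large subunit (chromosome 17, 75012670 to 75021261, plus strand). Its promoter, printed above, carries the ETS core at -193 (as CTTCCGG) and at -8 relative to the start. In SNU1079 its normalised count was 687.1, 653 and 761.6 with DMSO and 1336, 1261 and 1427 with YC-1 at 6 h, and 774.3, 812.9 and 794.2 against 1804, 1932 and 1485 at 16 h. In RBE at 16 h it was 841.9, 812.2 and 735.4 against 1833, 1828 and 1841. The groups stood apart in each case, with log2 changes of 0.94 and 1.12 in SNU1079 (adjusted p = 1.21e-06 and 2.53e-08) and 1.2 in RBE at 16 h (8.17e-09). In RBE at 6 h the change was 0.44 ± 0.11 (adjusted p = 0.00453).

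MRPL10, at the base of the stalk that recruits translation factors, rose by 0.52, 1.04, 0.62 and 0.6 on the log2 scale in RBE at 6 h and 16 h and SNU1079 at 6 h and 16 h. MRPL2, a homologue of a core bacterial protein near the peptidyl transferase centre, rose by 0.67, 0.99, 0.64 and 0.48. MRPL32, which is matured by the m-AAA protease of the inner membrane, rose by 0.51, 0.77, 0.63 and 0.67. Adjusted p over these 12 values ran from 1.18e-07 to 0.00754. The SNU1079 calls at 16 h of MRPL10 and MRPL2 were lost with equal sums (0.24, adjusted p = 0.0597, and 0.12, adjusted p = 0.49). The RBE call of MRPL32 at 6 h was lost without DMSO replicate 3 (0.42, adjusted p = 0.0552).

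**Figure D3:**
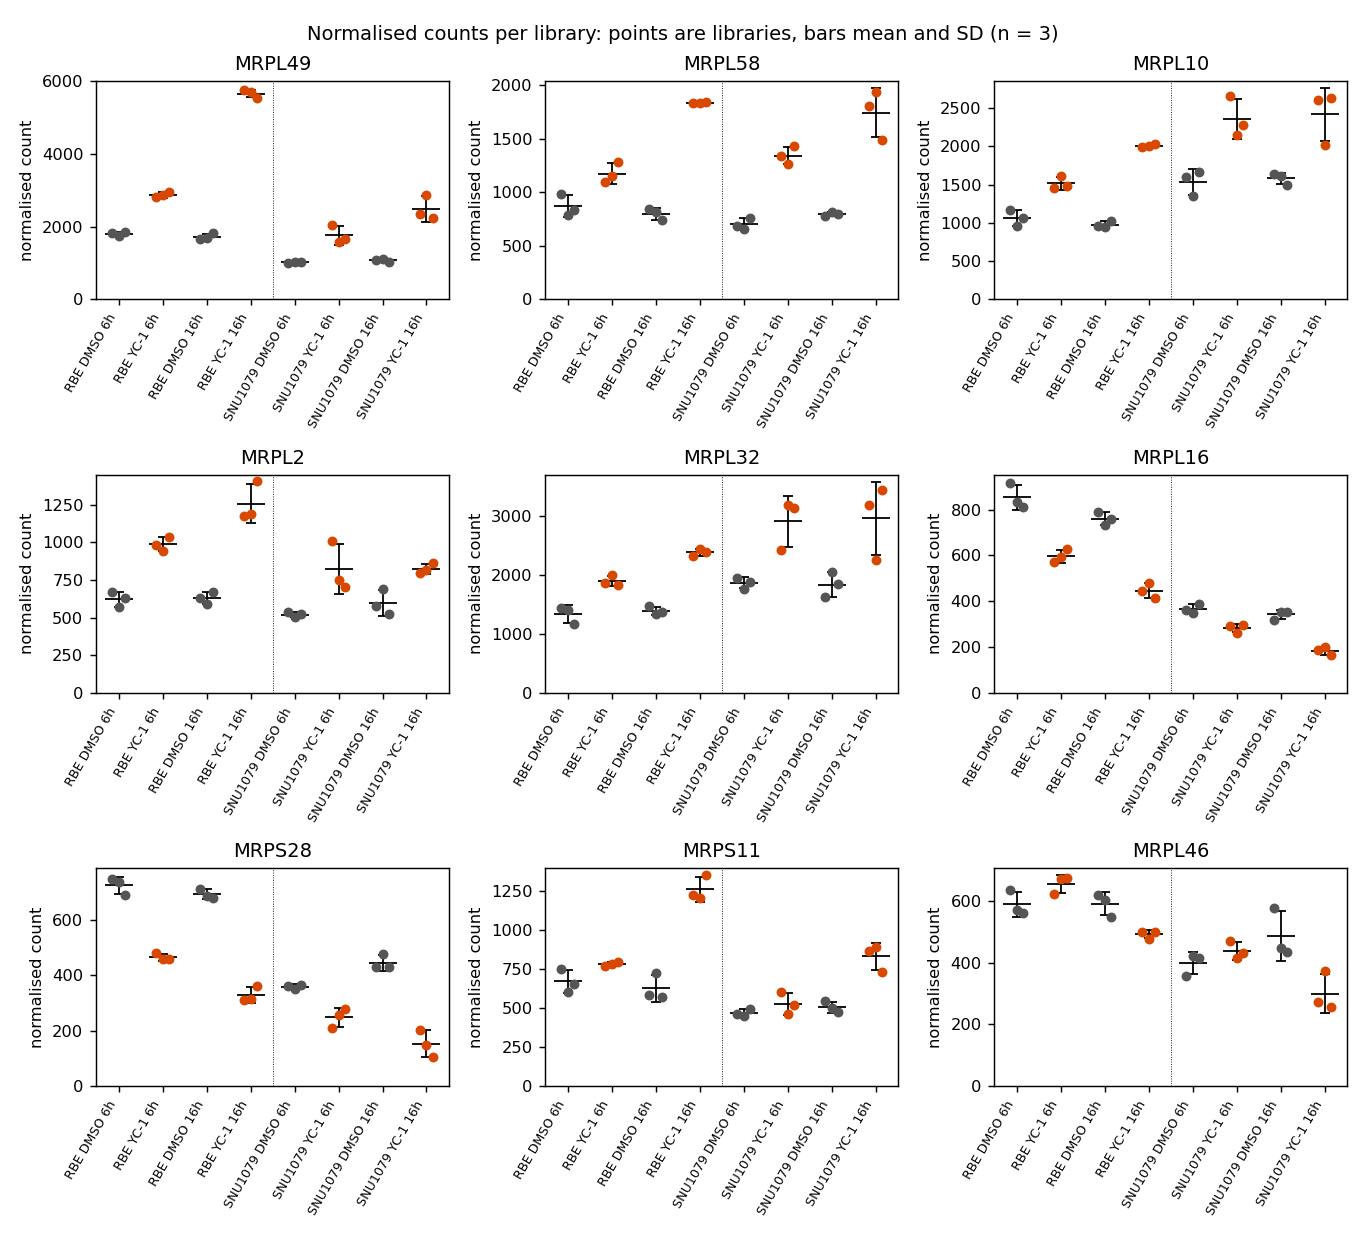
Normalised counts in each of the 24 libraries (points) with the group mean and SD for 9 genes, DMSO and YC-1 side by side in each line and time. MRPL49 and MRPL58 with YC-1 stand clear of DMSO in every pair of groups, MRPL16 and MRPS28 stand below it, and MRPS11 and MRPL46 move apart at 16 h.

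MRPL16 and MRPS28 fell in all 4 comparisons (2.63% of the genes, against 7.5% of all tested genes). MRPS28 is a small subunit protein related to bacterial S1. Its normalised count in RBE at 16 h was 711.6, 686.8 and 678 with DMSO and 309.2, 313 and 362.4 with YC-1. In SNU1079 it was 428.3, 478.3 and 428.6 with DMSO and 202.6, 149 and 105.6 with YC-1. Groups did not overlap, and MRPS28 fell by 1.08 (SE 0.16, adjusted p = 9.45e-06) in RBE and 1.59 (SE 0.16, adjusted p = 5.48e-08) in SNU1079 on the log2 scale. At 6 h it fell by 0.64 (adjusted p = 0.0056) in RBE and 0.54 (adjusted p = 0.0151) in SNU1079, and the SNU1079 call was lost without YC-1 replicate 1 (-0.43, adjusted p = 0.0707) and without the 3 libraries that stood apart (-0.43, adjusted p = 0.0616). Of its annotated exon length, 35.8% is shared with AC036214.3 on the same strand, so reads of the pair may not have been separable.

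MRPL16, a homologue of a bacterial protein near the A site, lies on chromosome 11 (59806135 to 59810872, minus strand), and its window holds the ETS core once, outside the 156 bases printed above. Its normalised count in RBE at 16 h was 791.2, 733.6 and 758.8 with DMSO and 443.3, 480.6 and 415 with YC-1. In SNU1079 it was 319.7, 354.2 and 353.6 against 187, 199.9 and 165.4. All YC-1 libraries lay below all DMSO libraries, and the log2 change was -0.77 ± 0.11 (adjusted p = 2.83e-06) in RBE and -0.89 ± 0.11 (adjusted p = 4.06e-07) in SNU1079. At 6 h it was -0.52 in RBE (adjusted p = 0.00091) and -0.37 in SNU1079 (adjusted p = 0.0113). The SNU1079 call at 6 h was lost without DMSO replicate 3 (-0.33, adjusted p = 0.0539) or YC-1 replicate 2 (-0.31, adjusted p = 0.0532). MRPL16 was also lower in SNU1079 than in RBE with DMSO at 6 h, by -1.22.

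At 6 h few of the genes had passed the test. In RBE 7 rose and 3 fell, beside 11.6% and 12.4% of all tested genes, and in SNU1079 11 rose and 4 fell, beside 14.0% and 14.2%. All 7 higher calls in RBE were MRPL genes (MRPL2, MRPL10, MRPL32, MRPL35, MRPL49, MRPL57 and MRPL58), and 6 of them were also higher in SNU1079 at 6 h. MRPL57 in RBE (0.59 ± 0.16, adjusted p = 0.01) lost its call without DMSO replicate 2 (0.51, adjusted p = 0.0577). MRPL34 was the third gene lower in RBE (-0.56 ± 0.2, adjusted p = 0.0443), a call lost without any of 4 single libraries (DMSO replicate 1 or 2, YC-1 replicate 1 or 2). Adjusted p was then 0.0502 to 0.227. In SNU1079 MRPL39, which resembles a tRNA synthetase, fell by 0.93 (SE 0.22, adjusted p = 0.00289), and without YC-1 replicate 1 the value was -0.6 (adjusted p = 0.02). Without the 3 libraries that stood apart, the counts were 11 and 6 in RBE, beside 16.8% and 18.0% of all tested genes. They were 20 and 5 in SNU1079, beside 18.7% and 16.9%.

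In RBE the YC-1 effect at 16 h exceeded that at 6 h for 21 of the genes and was below it for 1, MRPS27. Of all tested genes, 8.8% were higher and 9.43% lower. Without the 3 SNU1079 libraries that stood apart the counts were 33 and 2, beside 15.2% and 16.0%. With equal sums they were 8 and 5, beside 3.17% and 19.2%. The difference between the effects was 1.04 ± 0.14 for MRPL49 (adjusted p = 4.34e-05), 1.09 ± 0.24 for MRPL23 (adjusted p = 0.00365), a lining protein of the exit tunnel, and 1.44 ± 0.37 for MRPL52 (adjusted p = 0.0102). MRPS27, a pentatricopeptide repeat protein of the small subunit, differed by -0.73 ± 0.14 (adjusted p = 0.00126). Its normalised count in RBE was 2809, 2698 and 2760 with DMSO and 1467, 1575 and 1412 with YC-1 at 16 h.

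In SNU1079 the 16 h effect exceeded the 6 h effect for 5 genes and was below it for 9, beside 8.47% and 8.53% of all tested genes. Without the 3 libraries that stood apart these counts were 10 and 14, beside 14.7% and 15.2% of all tested genes. With equal sums they were 0 and 17, beside 2.8% and 18.1%. The higher count rested on single libraries, at 11 without YC-1 at 6 h replicate 1 or YC-1 at 16 h replicate 3, and at 0 without DMSO at 6 h replicate 3 or DMSO at 16 h replicate 3. The lower values were larger: MRPL22 at -1.31 ± 0.22 (adjusted p = 0.000508), MRPS28 at -1.05 (adjusted p = 0.00363) and MRPS22 at -1.02 ± 0.22 (adjusted p = 0.00348). Among the higher values were MRPL4 (0.96 ± 0.3, adjusted p = 0.0337), MRPS11 (0.55 ± 0.17, adjusted p = 0.0321) and MRPL17 (0.53 ± 0.15, adjusted p = 0.0219). These 3 calls were lost without any of 6, 8 and 3 single libraries, respectively, at adjusted p between 0.0522 and 0.1. With equal sums they were at 0.65 (adjusted p = 0.168), 0.24 (adjusted p = 0.423) and 0.22 (adjusted p = 0.353).

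Many calls were shared by the lines at 16 h. In both lines 29 genes rose, of 44 in RBE and 33 in SNU1079 (38.2% of the 76, against 19.3% of all tested genes), and 6 fell (7.89%, against 18.4%), namely MRPL14, MRPL16, MRPL22, MRPS18B, MRPS27 and MRPS28. With equal sums 6 rose in both (7.89%, against 9.6%) and 16 fell (21.1%, against 27.5%). Without the 3 libraries that stood apart 34 rose in both (44.7%) and 12 fell (15.8%), with no share of all tested genes computed. Under all 4 scalings the genes called higher in both lines were MRPL4, MRPL32, MRPL49, MRPL58, MRPS11 and MRPS24. Those called lower were the 6 named above, where the shift of the other scalings favours lower calls. Opposite calls in the lines numbered 0, where 0.526% and 0.661% of all tested genes had them, too few to read anything from the 0. The difference between the lines' responses, tested itself, passed for 14 genes: the response was higher in SNU1079 for 2 and lower for 12, beside 8.17% and 6.43% of all tested genes. The count of 12 became 21 without SNU1079 YC-1 at 16 h replicate 1. It was also 21 without the 3 libraries that stood apart, beside 10.9% of all tested genes. At 6 h only MRPL44 passed, higher in SNU1079, beside 0.767% of all tested genes that were higher and 0.773% that were lower. At an unadjusted p under 0.05 there were 4, beside 2097 of the 17860 tested genes. Without the 3 libraries that stood apart 4 passed as higher, beside 3.42% of all tested genes.

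MRPS31 and MRPL22 fell further in SNU1079. MRPS31, of the small subunit, lies on chromosome 13 (40729135 to 40771173, minus strand), and its promoter carries the ETS core at -32. Its normalised count was 439, 357.1 and 401.6 with DMSO and 316.1, 335.1 and 310.3 with YC-1 in RBE at 16 h. In SNU1079 it was 311.6, 404 and 395.7 against 190.8, 140.1 and 134.5. The groups did not overlap in either line, the change was -0.31 ± 0.15 (adjusted p = 0.079) in RBE and -1.26 ± 0.15 (adjusted p = 3.61e-07) in SNU1079, and the difference was -0.95 ± 0.21 (adjusted p = 0.004). MRPL22, which lines the exit tunnel, had 746.6, 681.3 and 651.1 against 523.4, 550.1 and 502.6 in RBE. In SNU1079 it had 684.9, 817.7 and 787.1 against 357.5, 373.3 and 214.3, and the difference between the lines was -0.91 ± 0.22 (adjusted p = 0.00844). MRPS22 fell by 1.19 in SNU1079 (SE 0.16, adjusted p = 1.66e-06), from 1022, 1056 and 1015 to 473.9, 327.9 and 586.8, and its difference was -0.86 (adjusted p = 0.012).

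MRPS16, a homologue of a bacterial small subunit protein, had a higher response in RBE. Its normalised count in RBE at 16 h was 2395, 2544 and 2367 with DMSO and 4041, 4068 and 3789 with YC-1. In SNU1079 it was 2237, 2085 and 2097 against 2170, 2324 and 1299. The SNU1079 groups overlapped, with a change of -0.19 (adjusted p = 0.278) against 0.7 ± 0.15 in RBE (adjusted p = 0.000377), and the difference was -0.9 ± 0.21 (adjusted p = 0.00585). With equal sums the RBE call was lost (0.38, adjusted p = 0.0663), MRPS16 passed as lower in SNU1079 (-0.55, adjusted p = 0.00847), and the difference still passed (-0.93, adjusted p = 0.0116). MRPL37, MRPL40 and MRPL20 also responded less in SNU1079, with differences of -0.72 (adjusted p = 0.00268), -0.72 (adjusted p = 0.00405) and -0.65 (adjusted p = 0.0105).

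MRPS5 and MRPL44 were the genes with the higher response in SNU1079. MRPS5, which lies at the entry of the messenger RNA channel, had 987.4, 1184 and 1072 with DMSO and 1883, 2268 and 1826 with YC-1 in SNU1079 at 16 h, and 1799, 1619 and 1816 against 2287, 2382 and 2123 in RBE. The groups did not overlap in either line, and the difference was 0.5 ± 0.13 (adjusted p = 0.0123). MRPL44, with an RNase III-like fold, had 1108, 1164 and 1155 against 1594, 1505 and 1555 in SNU1079 at 16 h. In RBE it had 1133, 1130 and 1167 against 1171, 1303 and 1167, and the change of 0.08 did not pass (adjusted p = 0.399). Its difference between the lines was 0.5 ± 0.11 at 6 h (adjusted p = 0.0248) and 0.36 ± 0.11 at 16 h (adjusted p = 0.0405). The call at 6 h was lost without any of 6 single libraries (0.0568 to 0.0822) and at 16 h without any of 10 of the 12 (0.0514 to 0.0942).

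MRPL46 and MRPS11 face away from each other on chromosome 15, with their annotated starts 34 bases apart (MRPL46 88459476 to 88467419, minus strand; MRPS11 88467453 to 88480773, plus strand). MRPS11 in SNU1079 at 16 h was 543, 498.6 and 471 with DMSO and 864.7, 892.4 and 730.8 with YC-1, and MRPL46 was 578.3, 446.8 and 433.6 against 271.7, 373.8 and 255.4. Neither pair of groups overlapped, and MRPS11 rose by 0.71 (adjusted p = 4.45e-05) while MRPL46 fell by 0.7 (adjusted p = 0.000178). In RBE at 16 h MRPS11 rose by 1.01 ± 0.12 (adjusted p = 5.01e-07), and MRPL46 was at -0.26 ± 0.14 (adjusted p = 0.109). MRPL46 in RBE passed with equal sums (-0.59, adjusted p = 0.00378) and without the 3 SNU1079 libraries (-0.26, adjusted p = 0.0142). In all, 19 of the 76 genes had such a head-to-head partner within 1000 bases, in 19 distinct pairs. Of the 18 partners that are not themselves members, 6 rose and 4 fell in RBE at 16 h (all tested genes 27.3% and 26.6%), and 9 rose and 4 fell in SNU1079 (28.7% and 25.8%). With equal sums the counts were 4 and 5, and 4 and 6. TCP1, a chaperonin subunit facing MRPL18 at 63 bases, rose by 0.62 in RBE and 0.48 in SNU1079. SKA3, a kinetochore protein facing MRPL57, fell by 1.25 in SNU1079 (adjusted p = 3.5e-05), where MRPL57 was at 0.55.

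Other members followed by role. Of the mitochondria-specific large subunit proteins, MRPL41 rose by 1.28 (adjusted p = 0.0144) in RBE and 1.49 (adjusted p = 0.00529) in SNU1079 at 16 h, but its libraries scattered. They held 280.7, 219.8 and 123 with DMSO and 511.7, 1141 and 289 with YC-1 in SNU1079. That call was lost without YC-1 replicate 2 (0.96, adjusted p = 0.0545), and the RBE call without DMSO replicate 1 or 3 or YC-1 replicate 3 (adjusted p = 0.0506 to 0.0746) and with equal sums (0.95, adjusted p = 0.0806). MRPL52, of the same kind, rose by 1.19 ± 0.26 in RBE (adjusted p = 0.000671). MRPL55 rose there by 1.18 ± 0.33 (adjusted p = 0.00428). The homologues of bacterial proteins MRPL4 and MRPL23 rose by 0.97 and 1.07 in RBE and by 1.04 and 0.67 in SNU1079. MRPL34 fell by 1.02 in RBE (adjusted p = 0.000181), from 249.8, 243.6 and 211.9 to 125.5, 99.44 and 123.2, and its change of -0.45 in SNU1079 did not pass (adjusted p = 0.0591). The difference between the lines was 0.57 ± 0.28 (adjusted p = 0.187).

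MRPL12, the stalk protein that also binds the mitochondrial RNA polymerase, passed in none of the 4 comparisons (0.07, adjusted p = 0.807, in RBE and -0.38 ± 0.22, adjusted p = 0.146, in SNU1079 at 16 h). In SNU1079 at 16 h it passed as lower with equal sums (-0.74, adjusted p = 0.0146) and without the 3 libraries that stood apart (-0.57, adjusted p = 0.00146), and at 6 h without those libraries (-0.5, adjusted p = 0.00322). Its exons share 68.2% of their length with AC139530.2 on the same strand. In all 12 genes passed in none of the 4 comparisons (15.8%, against 27.2% of all tested genes): MRPL1, MRPL3, MRPL12, MRPL15, MRPL19, MRPL36, MRPL43, MRPS9, MRPS10, MRPS26, MRPS34 and MRPS35.

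The 3 genes related to bacterial S18 took separate courses at 16 h. MRPS18C, the form in the small subunit closest in place to the bacterial protein, rose in RBE (0.91 ± 0.18, adjusted p = 0.000282). MRPS18A, in the large subunit, rose in RBE (0.43 ± 0.14, adjusted p = 0.0142), a call lost with equal sums (0.1, adjusted p = 0.56) and without DMSO replicate 1 (0.39, adjusted p = 0.0505). MRPS18B fell in SNU1079 by 0.62 (adjusted p = 3.52e-05) and in RBE by 0.25 (adjusted p = 0.0484). The RBE call was lost without DMSO replicate 1 (-0.21, adjusted p = 0.144), DMSO replicate 3 (-0.24, adjusted p = 0.11) or YC-1 replicate 3 (-0.16, adjusted p = 0.249). MRPS18A shares 47.0% of its exon length with RSPH9 and MRPS18C 40.2% with ABRAXAS1, both on the opposite strand.

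Summed over the genes of a subunit, both sums were higher with YC-1 in RBE at 16 h under the deposited scaling. In RBE at 6 h they overlapped. In SNU1079 at 6 h the MRPL sums (43110 to 45540 with DMSO, 48570 to 51130 with YC-1) did not overlap. Nor did the MRPS sums there (33420 to 34380 and 35460 to 39270). At 16 h in SNU1079 the MRPL sums were apart (42860 to 47220 and 53200 to 60780), and the MRPS sums overlapped (34650 to 37970 and 36630 to 40930). The 48 MRPL genes together held 48820, 48470 and 47290 normalised counts with DMSO and 71710, 72760 and 72430 with YC-1 in RBE at 16 h. The 28 MRPS genes held 34150, 34040 and 33230 against 43520, 44210 and 42240. As a share of each library's sum, the MRPL genes held 0.219% to 0.232% and 0.267% to 0.277%, and the MRPS genes 0.154% to 0.163% and 0.162% to 0.164%, which overlap. In SNU1079 at 16 h the MRPL shares overlapped (0.216% to 0.242% and 0.198% to 0.266%). The MRPS shares there were lower with YC-1 (0.18% to 0.195% and 0.137% to 0.169%). The ratio of the MRPL to the MRPS sum in RBE at 16 h went from 1.43, 1.42 and 1.42 to 1.65, 1.65 and 1.71, a ratio that no scaling of the libraries changes. In SNU1079 it was 1.31, 1.24 and 1.2 with DMSO and 1.43, 1.57 and 1.45 with YC-1, also without overlap. These sums and ratios are descriptions and were not tested. As a share of all nuclear-encoded signal, the 76 genes held 0.404% to 0.428% with DMSO and 0.516% to 0.519% with YC-1 in RBE at 16 h. In SNU1079 they held 0.433% to 0.476% and 0.43% to 0.479%, ranges that overlap.

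**Figure D4:**
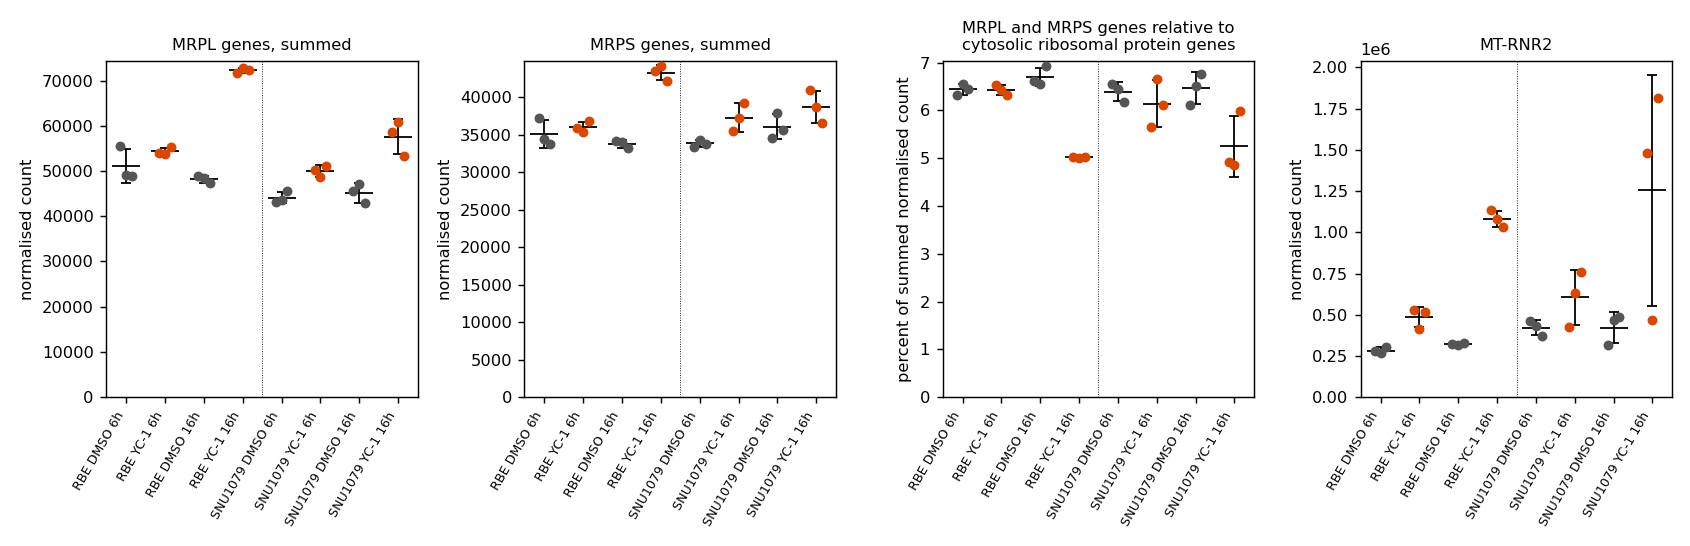
Summed normalised counts of the MRPL genes and of the MRPS genes, the 76 genes as a percentage of the cytosolic ribosomal protein genes, and the 16S ribosomal RNA MT-RNR2, per library. In RBE at 16 h the MRPL sum goes from 47290 to 48820 with DMSO to 71710 to 72760 with YC-1, while the percentage of the cytosolic genes goes from 6.55 to 6.92 down to 5.01 to 5.03.

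Genes for proteins of the cytosolic ribosome had higher medians in both lines. Of 77 such genes tested, 76 rose and 0 fell for RBE at 16 h with a median of 0.95, and 57 rose and 1 fell in SNU1079 with a median of 0.54. With equal sums 66 and 20 rose and 1 and 4 fell. The mitochondrial ribosomal protein genes therefore held a smaller share relative to the cytosolic ones: 6.62%, 6.55% and 6.92% with DMSO against 5.03%, 5.01% and 5.02% with YC-1 in RBE, and 6.12%, 6.52% and 6.77% against 4.91%, 4.85% and 5.98% in SNU1079. The groups did not overlap in either line, and this percentage does not depend on the scaling.

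The RNA partners inside the mitochondrion rose as well. MT-RNR2, the 16S ribosomal RNA of the large subunit, averaged 321600 with DMSO and 1082000 with YC-1 in RBE at 16 h (1.75 ± 0.32, adjusted p = 9.05e-05). In SNU1079 it averaged 422300 and 1254000 (1.38, adjusted p = 0.000972), although YC-1 replicate 2, a library that stood apart, held 467000 beside 1482000 and 1813000. MT-RNR1, the 12S RNA of the small subunit, rose by 1.56 (adjusted p = 0.000119) and 1.8 (adjusted p = 2.37e-05). Without the 3 libraries that stood apart the changes in SNU1079 were 1.78 for MT-RNR2 and 2.25 for MT-RNR1. Both rose in both lines with equal sums too. The library kit selects polyadenylated RNA, which bears on how these RNAs were captured.

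Further proteins of the mitochondrial ribosome have other names, and 5 of their genes were read. DAP3, a GTP-binding protein of the small subunit, rose in all 4 comparisons, by 0.23, 0.87, 0.25 and 0.53 in RBE at 6 h and 16 h and SNU1079 at 6 h and 16 h. With equal sums only the RBE call at 16 h was made for DAP3. PTCD3, another pentatricopeptide repeat protein of the small subunit, fell in RBE at 16 h (-0.96 ± 0.22, adjusted p = 0.00112) and in SNU1079 at 16 h (-0.67, adjusted p = 0.0156) and 6 h (-0.64, adjusted p = 0.0369). The 6 h call of PTCD3 was lost without the 3 libraries that stood apart (-0.22, adjusted p = 0.14). GADD45GIP1, in the large subunit, rose by 1.0 and 1.16 at 16 h, and the RBE call was not made with equal sums (0.68). AURKAIP1 rose in RBE (0.89 ± 0.32, adjusted p = 0.0223), a call not made with equal sums, and CHCHD1 fell in SNU1079 (-0.55 ± 0.15, adjusted p = 0.00351).

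Genes that build and serve the mitochondrial ribosome did not share 1 direction at 16 h. Of 24 assembly factors, RBE had 10 that rose and 7 that fell, and SNU1079 had 7 and 6 (4 and 9, and 2 and 9, with equal sums; 14 and 7, and 9 and 5, without the 3 libraries that stood apart). MTG2, a GTPase of large subunit assembly, rose by 1.08 and 1.44, whereas FASTKD2, an RNA-binding protein of 16S RNA maturation, fell by 1.36 and 1.63. Of 15 translation factors, RBE had 5 that rose and 4 that fell, and SNU1079 had 6 and 5 (2 and 6, and 1 and 8, with equal sums; 6 and 5, and 6 and 6, without the 3 libraries). MTRF1L, a release factor, rose by 0.8 and 1.09, and TSFM, the exchange factor of the elongation factor Tu, fell by 0.83 and 1.23. Of 20 mitochondrial aminoacyl-tRNA synthetases, 2 rose and 11 fell in RBE, with a median of -0.57, and 1 rose and 12 fell in SNU1079, with a median of -0.52. FARS2 fell by 2.2 and 2.01 and TARS2 by 1.32 and 1.52. More of them were lower than higher under each of the 4 scalings, and also without the 3 libraries (4 and 12, and 1 and 13).

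Among regulators, 6 of 9 nuclear genes known to act on mitochondrial genes fell in each line at 16 h and 1 rose. Of all tested genes, 26.6% fell and 27.3% rose in RBE, and 25.8% and 28.7% in SNU1079. The mean of NRF1 in RBE fell from 379.4 ± 13.3 (SD, n = 3) to 92.46 ± 23.6, and that in SNU1079 from 307.3 ± 86.9 to 118.6 ± 23.9. GABPB1, a subunit of the ETS factor GABP, fell by 1.46 (adjusted p = 2.67e-06) and 0.76 (adjusted p = 0.00271). Of the 28 member genes with the ETS core, 15 rose and 1 fell in RBE (median 0.57), and of the 39 without it 22 rose and 5 fell (median 0.41). In SNU1079 the counts were 9 and 6 (median 0.24) with the core and 20 and 8 (median 0.35) without. The order of the medians is opposite in the lines. Inside the organelle, TFAM, which packages mitochondrial DNA and starts its transcription, rose by 1.15 and 0.97, and TEFM, its elongation factor, fell by 1.82 and 2.66.

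Mitochondrial ribosomal protein genes are short, and length went with the response across the transcriptome. Their median span was 11.3 kb (1.27 to 351 kb), against 26.3 kb over 17258 tested genes with coordinates. Of the 35 under 10 kb, 25 rose and 2 fell in RBE at 16 h. That is 71.4% higher and 5.71% lower, against 38.3% and 13.8% of all genes of that length. In SNU1079 22 rose and 5 fell (62.9% and 14.3%, against 35.5% and 16.7%). Of the 23 from 10 to 30 kb, 52.2% rose in RBE, against 38.6% of all genes of that length. In SNU1079 the order was opposite (30.4%, against 41.1%), with medians of 0.18 and 0.35. Of the 14 from 30 to 100 kb, 42.9% rose in RBE (against 21.1%) and 28.6% in SNU1079 (against 25.2%). Of the 4 over 100 kb, MRPS22, MRPS27 and MRPS28 fell in SNU1079, and the other, MRPL33, rose in RBE only (1.02, adjusted p = 8.14e-05, against 0.16, adjusted p = 0.47; difference -0.86, adjusted p = 0.0302). Of all tested genes over 100 kb, 61.5% fell in RBE and 54.4% in SNU1079. Spearman's rho between log2 change and span across the 76 genes was -0.32 in RBE and -0.37 in SNU1079, and across all genes -0.41 and -0.31. Genes share libraries and are not independent replicates. The part of length in these changes was not tested.

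**Figure D5:**
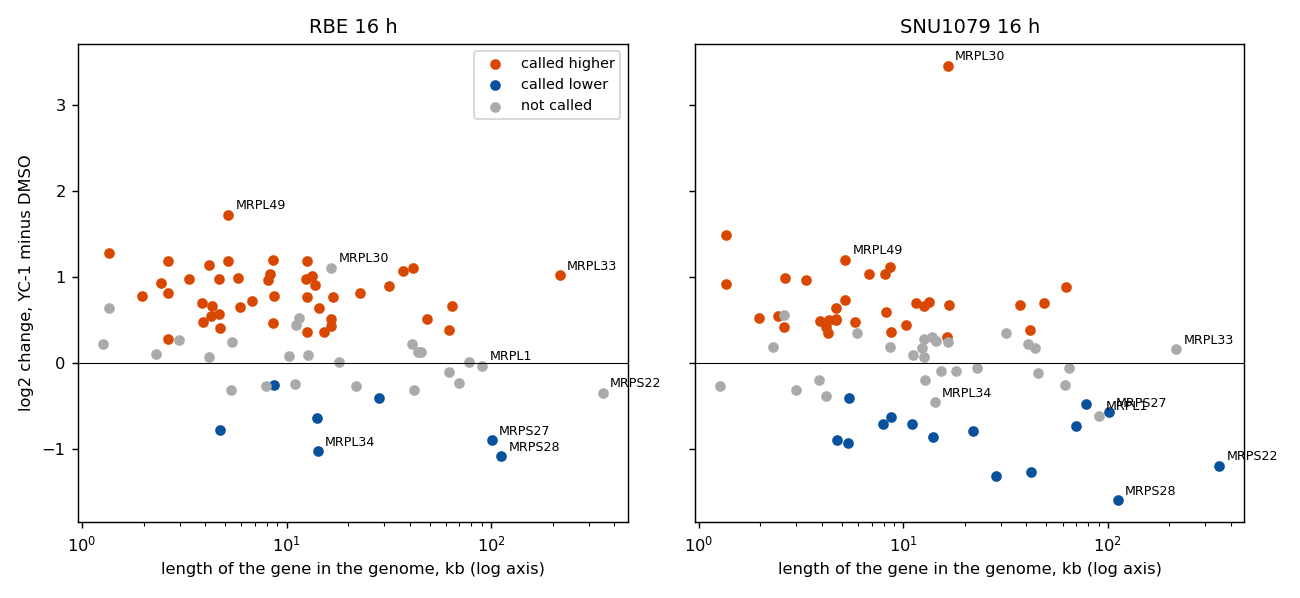
Log2 change with YC-1 at 16 h against gene length in kb (log axis) for the 76 genes in each line. Colours mark genes called higher, called lower or not called at an adjusted p under 0.05. The 3 MRPS genes over 100 kb lie below 0 in both lines and rho is -0.32 in RBE and -0.37 in SNU1079.

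Few of the genes changed with time under solvent alone. Between DMSO at 6 h and 16 h, 0 of the 76 genes passed in RBE with limma (3 at an unadjusted p under 0.05), where 0.0448% of all tested genes did. In SNU1079 MRPS6 passed (0.47 ± 0.12, adjusted p = 0.0183), beside 3.82% of all tested genes that were higher and 4.75% that were lower. That call was lost without any of 4 single libraries (0.0539 to 0.075), and without the 3 libraries that stood apart 11 genes were higher and 1 lower, beside 9.08% and 9.24% of all tested genes.

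Levels also differed between the lines under DMSO. With DMSO at 6 h, 10 genes were higher and 33 lower in SNU1079 than in RBE, beside 27.2% and 29.2% of all tested genes. At 16 h 17 were higher and 20 lower, beside 25.9% and 29.3%. The 17 became 11 when SNU1079 DMSO replicate 2 was left out. Leaving out the 3 libraries that stood apart gave 18 and 26, beside 27.3% and 30.7% of all tested genes. MRPL13, with 583.3, 611.5 and 607.1 in SNU1079 and 1660, 1597 and 1416 in RBE at 6 h, was lowest (-1.37 ± 0.21, adjusted p = 1.12e-05), followed by MRPL23 (-1.29) and MRPL16. MRPL4 (1.05) and MRPS12 (0.97 ± 0.31, adjusted p = 0.0116), a protein of the decoding centre, were highest with MRPL39. The MRPS12 call was lost without RBE DMSO replicate 2 (0.85, adjusted p = 0.0526). At 16 h MRPS24 (1.0 ± 0.16) and MRPS35 (0.95 ± 0.13) were higher and MRPL42 lower (-1.17 ± 0.21, adjusted p = 6.84e-05). MRPL30 at 16 h rested on 1 library listed at 0 in SNU1079, beside 92.87 and 137.7 in its group. Without it the difference between the lines was -0.59 (adjusted p = 0.286) in place of -2.87, and the YC-1 change in SNU1079 1.17 (adjusted p = 0.0315) in place of 3.45.

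Per kb of exon and averaged over the 24 libraries, levels of the 76 genes spanned from 73.1 to 2560 normalised counts per kb. MRPS35 (2560), MRPL51 (1630) and MRPL15 (1440) were highest, and MRPL30 (73.1) and MRPL46 (76.8) lowest, with MRPS18C next. Annotated exon length counts all isoforms together, so these levels are low for genes with long rare exons.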

How the data were processed

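The authors deposited normalised counts per gene for 24 libraries, a signal scaled between libraries and not raw counts. STAR, DESeq2 and genome build hg38 are named in the submitters' processing notes. How reads were counted, with which annotation and strand setting, is not given in the sources used here. The library kit keeps strand, per the labels' protocols.

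On log2(normalised count + 1), limma 3.58.1 (R 4.3.3) was fitted to the 24 libraries at once. The 8 group means left 16 residual degrees of freedom, and the variance followed an intensity trend. Each gene has a single spread shared by all groups, so the SE of its YC-1 effect is the same in both lines. It does not measure the scatter of any single group. Median distances from group mates averaged 0.346 and 0.356 with YC-1 in SNU1079 at 6 h and 16 h, against 0.146 and 0.169 in RBE. P-values are two-sided and Benjamini-Hochberg adjusted over the 17860 genes tested, and a gene was called at an adjusted p under 0.05. Log2 changes on this scale understate those of low genes. The fit was checked on simulated data with the same spread for a gene in every group, so that check does not cover unequal scatter. Coordinates came from GENCODE 29 by Ensembl identifier, which matched all 76 genes. Python 3.11.15, pandas 2.3.3 and matplotlib 3.10.9 were also used.

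Tested were the YC-1 effect against DMSO per line and time, the differences between those effects, DMSO over time and the lines under DMSO. Named genes were the 5 highest and 5 lowest called genes per YC-1 effect, 3 per direction elsewhere, genes called in all 4 comparisons and those singled out by role. Genes named for a pattern of calls, a neighbour or gene length were chosen after their values were seen. The genes, lists and rules were chosen with earlier results of these data known. Alternatives covered the pseudocount, the filter, the variance model, the scaling, the libraries in the fit, the replicate block, pooled times and the removal of each library.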

Additional observations from a re-analysis of the deposited data

Results flagged for a closer look

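Differences between the 16 h and 6 h effects, or between the lines' effects, passed the test of the difference itself (limma, adjusted p under 0.05) for the genes below, given as log2 values with no explanation. In RBE the 16 h effect differed from the 6 h effect by 1.09 for MRPL23, 1.04 for MRPL49, 1.44 for MRPL52 and -0.73 for MRPS27. In SNU1079 it differed by 0.96 for MRPL4, 0.53 for MRPL17, 0.55 for MRPS11, -1.31 for MRPL22, -1.02 for MRPS22 and -1.05 for MRPS28. The effect in SNU1079 minus that in RBE was 0.5 for MRPL44 at 6 h. At 16 h it was 0.36 for MRPL44, 0.5 for MRPS5, -0.91 for MRPL22, -0.9 for MRPS16 and -0.95 for MRPS31.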

How the results depend on the processing

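Counts are given as higher and lower, and the cause of each move was not tested unless the setting itself tests fewer libraries. Percentages in brackets are the shares of all tested genes under the same setting. With library quality weights, YC-1 against DMSO gave 19 and 7 in RBE at 6 h (22.5% and 23.6%). It gave 13 lower in RBE at 16 h (32.4%) and 28 and 9 in SNU1079 at 6 h (23.6% and 22.0%). The 16 h minus 6 h effect then gave 36 and 5 in RBE (19% and 19.9%). It gave 14 and 15 in SNU1079 (17.5% and 17.8%). The SNU1079 minus RBE effect gave 6 and 2 at 6 h (7.81% and 6.7%) and 25 lower at 16 h (12.8%). DMSO over time in SNU1079 gave 20 and 1 (12.3% and 12.9%), and the lines under DMSO at 6 h 21 higher (34.3%). With no filter and with no intensity trend, the 16 h minus 6 h effect in SNU1079 gave 1 and 2 higher (3.75% and 7.59%). The line difference at 16 h gave 1 higher in each (3.81% and 7.77%). With only the 12 libraries of the line, lower calls in RBE were 11 at 6 h (19.3%) and 13 at 16 h (31.7%). In SNU1079 at 6 h there was 1 (9.47%). The 16 h minus 6 h effect gave 33 and 3 in RBE (17.0% and 17.9%) and 0 and 2 in SNU1079 (2.75% and 3.28%). DMSO over time in SNU1079 gave 0 higher (1.1%). With only the 6 libraries compared, lower calls were 6, 12 and 1 in the same 3 comparisons (17.3%, 30.7% and 10.2%). Higher calls in SNU1079 at 16 h were 16 (18.4%).

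Equal sums at 16 h gave 24 and 17 in RBE (16.3% and 36.3%) and 10 and 27 in SNU1079 (17.2% and 36.9%). The 16 h minus 6 h effect was 8 and 5 in RBE (3.17% and 19.2%) and 0 and 17 in SNU1079 (2.8% and 18.1%). The line difference at 16 h gave 1 higher (7.27%), and DMSO over time in SNU1079 3 higher (4.69%). Equal sums without mitochondrially encoded genes gave 12 lower in RBE (32.0%) and 15 and 25 in SNU1079 (21.2% and 33.1%) at 16 h. The 16 h minus 6 h effect gave 3 lower in RBE (15.2%) and 0 higher in SNU1079 (4.21%). With this scaling the line difference at 16 h gave 1 higher (7.35%) and DMSO over time in SNU1079 4 higher (4.83%). Pooled times gave 30 and 5 in RBE (22.8% and 23.6%) and 26 and 12 in SNU1079 (24.6% and 22.8%), set against 6 h counts. Without the 3 libraries that stood apart, RBE had 11 and 6 at 6 h (16.8% and 18.0%) and 13 lower at 16 h (30.4%). SNU1079 had 20 higher at 6 h (18.7%). The 16 h minus 6 h effect was 33 and 2 in RBE (15.2% and 16.0%) and 10 and 14 in SNU1079 (14.7% and 15.2%). The line difference gave 4 higher at 6 h (3.42%) and 21 lower at 16 h (10.9%). DMSO over time in SNU1079 gave 11 and 1 (9.08% and 9.24%).

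Replicate numbers gave correlations between same-numbered libraries of -0.15 to 0.19 and do not pair them. With the replicate block, higher calls were 1 for the 16 h minus 6 h effect in SNU1079 (7.3%). They were 0 and 1 for the line difference at 6 h and 16 h (0.442% and 6.82%). For DMSO over time in SNU1079 they were 0 (2.11%).

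Leaving out each library in turn gave 6 to 8 higher and 2 to 3 lower in RBE at 6 h, 37 to 43 and 5 to 6 in RBE at 16 h, 8 to 14 and 2 to 4 in SNU1079 at 6 h, and 28 to 35 and 15 to 18 in SNU1079 at 16 h. The 16 h minus 6 h effect gave 16 to 21 and 1 to 1 (RBE) and 0 to 11 and 8 to 12 (SNU1079). The line difference gave 0 to 1 and 0 to 0 at 6 h and 1 to 2 and 9 to 21 at 16 h. DMSO over time gave 0 to 0 and 0 to 0 in RBE and 0 to 1 and 0 to 1 in SNU1079, and the lines under DMSO 7 to 10 and 27 to 31 at 6 h and 11 to 17 and 17 to 19 at 16 h. For the lines under DMSO at 16 h the 11 arose without SNU1079 DMSO at 16 h replicate 2. Of the values of named genes under these removals, 700 kept their direction and side of the threshold, 63 lost the call and 5 gained it. No named gene reversed under any setting run. Depth cannot be read from normalised counts and is unknown.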

Other observations

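Other members were called in 1 line at 16 h, and whether the lines differed is given only where the difference was tested. Higher calls in RBE alone numbered 15 (19.7% of the 76 genes, against 7.4% of all tested genes): MRPL11, MRPL13, MRPL18, MRPL33, MRPL35, MRPL54, MRPS12, MRPS14, MRPS16, MRPS18A, MRPS18C, MRPS23, MRPS25, MRPS33 and MRPS36. Of these, MRPS25, a small subunit protein, differed between the lines by -0.88 ± 0.2 (adjusted p = 0.00501), at 0.82 in RBE and -0.06 in SNU1079. MRPL11, at the base of the stalk, was at 0.89 in RBE and 0.35 in SNU1079, and the difference of -0.53 ± 0.26 did not pass (adjusted p = 0.178). Higher calls in SNU1079 alone were MRPL30, MRPL44, MRPL53 and MRPS30. MRPL53 shares 45.2% of its exon length with CCDC142 on the same strand. Without the 3 libraries that stood apart, MRPL30, MRPL53 and MRPS30 were higher in both lines, as were MRPL18, MRPS18A and MRPS33. Lower calls in SNU1079 alone numbered 9 (11.8%, against 6.9% of all tested genes). With equal sums MRPL27, MRPL39, MRPL46, MRPL48, MRPL50, MRPS6, MRPS22 and MRPS31 were lower in both lines. Without the 3 libraries MRPL39, MRPL46, MRPL50, MRPS6, MRPS22 and MRPS31 were. MRPL50, at -0.7 in SNU1079 and -0.24 in RBE, faces ZNF189, a zinc finger gene that fell by 0.85 in RBE and 0.56 in SNU1079.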
